A study of Caenorhabditis elegans with 2 samples.

Results

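The genes that encode the subunits of the nuclear RNA polymerases, and the TATA-binding protein with its associated factors (TAFs), were examined for binding of the R02D3.7 protein near their starts. Members were the nuclear protein-coding genes of Caenorhabditis elegans whose symbols begin with rpb-, rpoa-, rpac-, rpc- or taf-, together with ama-1, tbp-1 and ttb-1. They number 41 of 19973 protein-coding genes. By the enzyme they belong to, 7 are specific to polymerase II (ama-1, rpb-2, rpb-3, rpb-4, rpb-7, rpb-9 and rpb-11), 5 are shared by polymerases I, II and III (rpb-5, rpb-6, rpb-8, rpb-10 and rpb-12) and 4 belong to polymerase I (rpoa-1, rpoa-2, rpoa-12 and rpoa-49). A pair, rpac-19 and rpac-40, is shared by polymerases I and III, 4 genes belong to polymerase III (rpc-1, rpc-2, rpc-11 and rpc-25), and the remaining 19 are general factors, which are 17 TAFs, the TATA-binding protein gene tbp-1 and the TFIIB gene ttb-1.

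Binding was measured by chromatin immunoprecipitation and sequencing (ChIP-seq), in which DNA attached to one protein is recovered and read. All samples came from 1 group, whole larvae at the L2 stage with males and females pooled. Their strain was OP218, with the unc-119(ed3) allele on chromosome III and wgIs218, an integrated transgene that supplies R02D3.7 fused to eGFP, so that every value is for the tagged protein; its gene is named rcat-1 in the annotation. There were 2 biological replicates and no comparison group, and because whole animals were used, binding in few cells and weak binding in many cells cannot be told apart.

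Cells use separate polymerases for different RNAs. Polymerase I makes the large ribosomal RNA precursor, polymerase II makes messenger RNAs, and polymerase III makes transfer RNAs, a small ribosomal RNA and other short RNAs. Each enzyme has a large catalytic pair at its centre, an assembly platform beside it, a set of small subunits common to all of them and a stalk. At polymerase II promoters, the TATA-binding protein and the TAFs form the complex TFIID, which recognises the promoter, and TFIIB then joins the promoter to the polymerase; many TAFs pair with each other through histone folds.

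The deposited data are lists of regions with a signal value and a summit, the base of strongest signal, for each region. Each replicate has a list of 30000 candidate regions, and a joined list of 30000 candidate regions was called on both replicates together. Of these, 542 regions passed the irreproducible discovery rate (IDR) step, which compares the ranking of regions between replicates. The IDR set is made up of the 542 joined regions of highest signal, from 1699 down to 39.1. A region in it need not rank alike in both replicates, and that at rpb-7 had ranks 342 and 2472. The signal is the authors' own value on a scale that is not stated, the joined list runs from 11.6 to 1699 with a median of 14.9, and replicate 1 (7.74 to 1257, median 10.3) and replicate 2 (4.89 to 448, median 6.63) differ in scale, so rank within a list, with rank 1 the strongest, is given beside each signal. A gene's window covered 1000 bp before and 200 bp after its annotated 5′ ends, and the gene was given the summit of highest signal in it. Read depth is unknown, and the candidate lists reach far below the IDR set, so a candidate region alone is weak evidence of binding.

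The sequences below are the strongest joined summit of 6 members with 50 bases on either side of it. They are shown because they carry a run shared by a pair, or words that are frequent under the strongest R02D3.7 regions of the genome. The window of rpb-7, which is in the IDR set and holds none of the words, is not shown. The 6 are therefore not a ranking by signal. All are on the strand of the member gene, 5′ to 3′, from the RefSeq copy of WBcel235, which is the assembly of ce11. Capitals mark the words CGTAAATC, ACGCGC and GACGCA on either strand (as reverse complements, GATTTACG, GCGCGT and TGCGTC), the TATA word TATAAA on either strand (TTTATA), and, in taf-8 and taf-11.3, a run of 15 bases that the pair has in common.
taf-8: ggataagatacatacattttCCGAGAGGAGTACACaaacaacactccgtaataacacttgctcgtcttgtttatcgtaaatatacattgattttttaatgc
taf-11.3: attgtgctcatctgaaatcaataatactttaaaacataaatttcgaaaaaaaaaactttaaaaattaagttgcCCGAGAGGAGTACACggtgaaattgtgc
rpb-11: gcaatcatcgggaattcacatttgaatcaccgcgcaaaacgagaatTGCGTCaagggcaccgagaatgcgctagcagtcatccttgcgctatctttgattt
rpb-6: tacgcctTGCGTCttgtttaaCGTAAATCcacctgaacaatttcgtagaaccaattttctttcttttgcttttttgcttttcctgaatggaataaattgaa
rpoa-1: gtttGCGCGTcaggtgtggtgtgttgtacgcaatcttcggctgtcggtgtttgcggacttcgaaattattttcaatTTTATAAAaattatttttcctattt
ama-1: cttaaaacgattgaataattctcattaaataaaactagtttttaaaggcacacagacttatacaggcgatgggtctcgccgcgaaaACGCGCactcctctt

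The windows of taf-8 and taf-11.3 hold none of the 4 words. They share CCGAGAGGAGTACAC in the same orientation relative to the gene; the run starts 30 bases before the summit in taf-8 and 23 bases after it in taf-11.3. It was noticed after the sequences had been seen, and it was the longest run shared by any pair among the 12 members with the strongest summits, the next longest being 12 bases (taf-11.3 and taf-6.2). The run occurs 110 times in the genome. It is in 8 of the 542 IDR summit windows (1.48%) and in 19 of the 30000 joined summit windows (0.0633%), and 16 of those 19 regions rank in the first 3000. The windows from which the run was taken are inside these counts, taf-8 in all of them and taf-11.3 in those of the joined list. The counts are therefore not independent evidence about the run.

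The word GACGCA is read as TGCGTC 4 bases before the summit of rpb-11. The window of rpb-6 holds TGCGTC and CGTAAATC, 43 and 29 bases before its summit, and those of rpoa-1 and ama-1 hold ACGCGC, read on the other strand in rpoa-1, which also holds the TATA word in overlapping copies on both strands. Among the 12 members whose joined summit ranks in the first 3000, 5 hold at least 1 of CGTAAATC, ACGCGC and GACGCA (41.7%), namely ama-1, rpb-11, rpb-10, rpb-6 and rpoa-1. The share is 51.1% of IDR summit windows and 4.39% of all joined summit windows, and 1 of the 14 members with a weaker joined summit has such a word (rpc-1, ACGCGC). These 3 words were taken from an earlier look at the same regions, so their frequency under strong summits is not independent evidence.

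In mean GC content, the windows of the 12 members (37.5% ± 5.74, SD over 12 windows) lie between those of all joined summits (33.3%) and those of the IDR summits (45.8%). The 3 words were also counted in fixed promoter sequences, from 250 bases before to 50 bases after the outermost 5′ end. ACGCGC is in 8 of the 41 member promoters (19.5%) and in 5.92% of the promoters of all protein-coding genes. The 8 genes are rpb-10, rpb-8, rpoa-1, rpc-1, taf-10, taf-11.1, taf-3 and taf-6.2. CGTAAATC is in 1 member promoter (2.44%, against 1.74% of all promoters), GACGCA in 1 (2.44%, against 8.78%) and TATAAA in 17 (41.5%, against 37.9%). A word match is a description of the letters and not evidence of a binding site.

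Of the 41 genes, 3 had an IDR summit in the window (7.32%, 95% Wilson interval 2.52 to 19.4), and the share over all protein-coding genes was 3.47%. They were taf-8, rpb-11 and rpb-7. The interval includes the share over all genes. It no longer did when each summit was given only to the gene with the nearest start, where the count was again 3 and the share over all genes fell to 2.23%. With 2000 bp upstream the count was 5, beside 4.22% of all genes. The reading at the level of the IDR set thus depends on how shared summits are assigned and on the window. With 1000 bp upstream, polymerase II accounted for 2 of its 7 genes (28.6%) and the general factors for 1 of 19 (5.26%). None of the 5 shared, 4 polymerase I, 2 rpac and 4 polymerase III genes had one, and the upper Wilson bounds of such counts are 49% for 4 genes, 43.4% for 5 and 65.8% for the rpac pair, so that these classes are too small to place against all genes.

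A larger share appeared below the IDR set. A joined summit within the first 3000 by signal, which corresponds to a signal of at least 22, was found for 12 of the 41 genes (29.3%, 95% Wilson interval 17.6 to 44.5), and the share over all protein-coding genes was 9.21%. Here 3 of 7 polymerase II genes, 3 of 5 shared genes, 1 of 4 polymerase I genes and 5 of 19 general factor genes were included, and none of the rpac or rpc genes. Over all ranks, 26 members had a joined summit (63.4%, 48.1 to 76.4), beside 43.0% of all genes. The intervals treat genes as independent and cover counting error only.

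**Figure D1:**
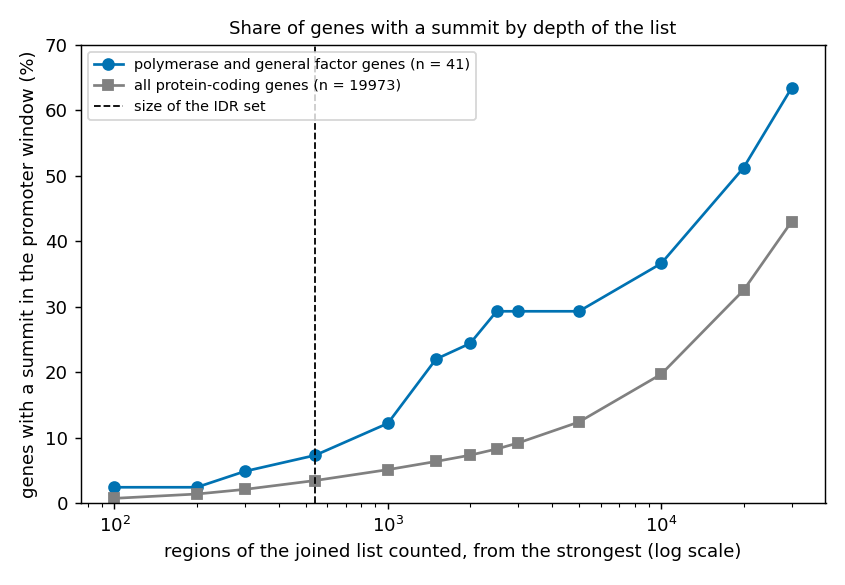
Share of genes (percent, vertical axis) with a joined summit in the window among the first n regions by signal (horizontal axis, log scale), for the 41 members and for all 19973 protein-coding genes. The members' line runs from 7.32% at the end of the IDR set to 29.3% at rank 2500, stays there to rank 5000 and reaches 63.4% at rank 30000, while the line for all genes passes 3.47%, 8.28%, 12.4% and 43.0%.

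The distance between members and all genes in the joined list built up between ranks 542 and 2500, as the plot of share by rank shows. At rank 1000 the shares were 12.2% of members and 5.13% of all genes, at rank 1500 they were 22% and 6.38%, and at rank 2500 they were 29.3% and 8.28%. No member was added between ranks 2500 and 5000, where the share of all genes rose to 12.4%. The cut-offs were chosen with these data in view, so the rise is a description of where the members lie in the list.

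Each replicate gave a similar picture with partly different genes. In replicate 1, 3 members had a summit among its first 542 regions (all genes 3.46%), and they were the same 3 as in the IDR set. In replicate 2 there were again 3 (all genes 2.77%), with taf-11.3 in place of rpb-7. Within the first 3000, the counts were 9 of 41 in replicate 1 (22%, all genes 9.31%) and 8 of 41 in replicate 2 (19.5%, all genes 7.12%). The genes within the first 3000 in both replicates were rpb-11, rpb-7, taf-11.3, taf-6.2 and taf-8. Over all ranks, 27 members (65.9%, all genes 42.6%) and 22 members (53.7%, all genes 41.9%) had a candidate region, and 15 members had one in the joined list and in both replicates. No share over all genes is given for these 15 or for the genes within the first 3000 in both replicates. Those counts therefore describe the members alone.

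**Figure D2:**
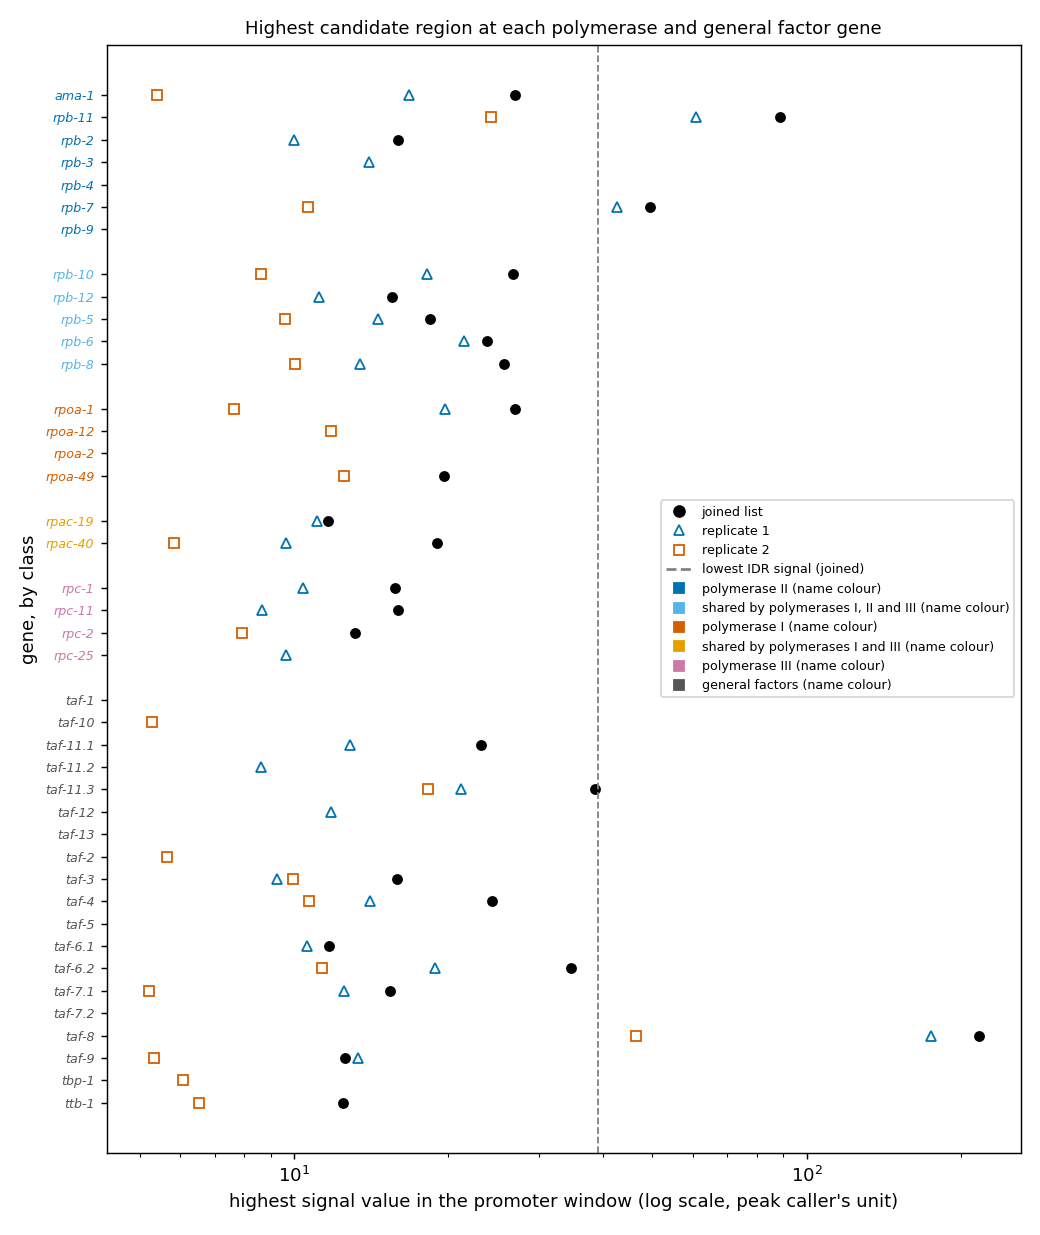
Signal of the strongest region in the window (horizontal axis, authors' units, log scale) for each of the 41 genes (rows, by polymerase class), in the joined list and in replicates 1 and 2; the dashed line is the lowest IDR signal, 39.1. The taf-8 points (217 joined, 175 and 46.4 in the replicates) lie farthest to the right, and 7 rows have no point.

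The strongest binding at any member was at taf-8, a histone-fold TAF. Its signal was 175 in replicate 1 (rank 67) and 46.4 in replicate 2 (rank 92), and it was 217 in the joined list (rank 72). Both libraries place it near the top of their lists. The joined region spans chrII:9669101-9669242 (ce11) with its summit 149 bp upstream of the start, between genes, and no other protein-coding gene has its window there. The summit lay 149 bp upstream in replicate 1 and 126 bp upstream in replicate 2, and 99.4% of all protein-coding genes had a weaker strongest region or none.

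Next came rpb-11, which with rpb-3 forms the assembly platform of polymerase II. Its signal was 60.9 in replicate 1 (rank 227), 24.2 in replicate 2 (rank 208) and 88.6 in the joined list (rank 210), so that its place hardly differed between lists. The region spans chrII:14059789-14060118, and the summits lay 130, 106 and 131 bp upstream of the start, in the same order. The window of W01G7.4, a gene downstream on the same strand, also covers this summit, which is 785 bp before the start of W01G7.4; RefSeq calls its product a putative RNA polymerase II nuclear localization protein.

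The third IDR region was at rpb-7, which with rpb-4 makes the stalk of polymerase II, and there the replicates differed. The signal was 42.7 in replicate 1 (rank 342) and 10.6 in replicate 2 (rank 2472), and 49.5 in the joined list (rank 408). The region (chrI:3032782-3033111) stands over the start itself, 9 bp upstream of it in the joined list and 21 and 34 bp downstream of it in replicates 1 and 2. It is shared with the divergent neighbour Y54E10BR.2, an ADP-ribosylation factor-related gene, and the summit falls in the 5′ UTR of that neighbour. These peaks cannot be assigned to one gene of such a pair from position alone.

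Among the other polymerase II genes, ama-1, which encodes the largest catalytic subunit, had a signal of 16.8 in replicate 1 (rank 2189), 5.40 in replicate 2 (rank 24638) and 27.0 in the joined list (rank 1232). The replicates' strongest summits were not at one place. The joined summit lay 576 bp upstream of the start (chrIV:4247329-4247658), where replicate 1 had a second region of 15.5 (rank 3093) and replicate 2 its strongest at 571 bp, while the strongest replicate 1 summit lay 18 bp upstream. Its catalytic partner rpb-2 had weaker regions, 10.01 in replicate 1 (rank 16101), none in replicate 2 and 16.0 in the joined list (rank 11906). Replicate 1 alone gave a region for rpb-3, at 14.0 (rank 4759), and rpb-4 and rpb-9, which is known for its part in transcript accuracy, had none in any list.

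All 5 genes for subunits common to the polymerases had a joined region, and none was in the IDR set. The highest was at rpb-10, with 18.2 in replicate 1 (rank 1594), 8.60 in replicate 2 (rank 6255) and 26.7 in the joined list (rank 1275). Its joined summit lay 175 bp upstream, within the windows of the divergent gene Y37E3.1 and of moag-4, and the strongest replicate 1 summit was 331 bp upstream. Replicate 1 had only 9.57 at the joined summit (rank 18348). For rpb-8, the signal was 13.4 in replicate 1 (rank 5752), 10.04 in replicate 2 (rank 3226) and 25.7 in the joined list (rank 1475), at chrIII:4918039-4918368. No other protein-coding gene shares that summit, which lay 196 bp upstream.

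At rpb-6 the libraries disagreed. Replicate 1 gave 21.4 (rank 917), replicate 2 gave no region, and the joined list gave 23.8 (rank 2072). The summit, 264 bp upstream (chrII:10578951-10579280), is also 839 bp before dohh-1, a deoxyhypusine hydroxylase gene on the same strand. Joined signals were lower at rpb-5, 18.4 (rank 6761), and at rpb-12, 15.5 (rank 13141).

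Of the polymerase I genes, rpoa-1, the largest catalytic subunit, had a signal of 19.7 in replicate 1 (rank 1186), 7.62 in replicate 2 (rank 9784) and 26.9 in the joined list (rank 1241). The joined summit lay 122 bp upstream (chrII:13694752-13695081) and the replicate 1 summit 112 bp upstream, both measured from the outer of the 2 annotated starts, and replicate 2 had only 6.06 there (rank 18963). The 7.62 of replicate 2 belongs to another place, inside the gene, 411 bp upstream of the inner start (summit at chrII:13679235). The other catalytic gene, rpoa-2, had no region in any list. The genes rpoa-12 and rpoa-49 had regions in replicate 2 of 11.8 (rank 1470) and 12.5 (rank 1125) and none in replicate 1. The joined list had none for rpoa-12 and 19.6 (rank 5098) for rpoa-49, where the summit falls in an intron of rpt-4.

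The pair shared by polymerases I and III takes the place that rpb-3 and rpb-11 have in polymerase II. Its joined signals were below that of rpb-11, while rpb-3 had no joined region. For rpac-40 the signal was 9.63 in replicate 1 (rank 18036), 5.83 in replicate 2 (rank 20796) and 19.001 in the joined list (rank 5873). For rpac-19 it was 11.101 in replicate 1 (rank 11672) and 11.7 in the joined list (rank 29516), with none in replicate 2. The nearest IDR summit to a start of rpac-19 was 1627 bp away, at ubc-7, the first gene of the same-strand run that rpac-19 follows; the joined signal there was 47.2 (rank 425), with 31.2 in replicate 1 and 13.9 in replicate 2.

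The polymerase III genes ranked far below the IDR set. The joined signals were 15.7 for rpc-1 (rank 12539) and 13.1 for rpc-2 (rank 21971), the catalytic pair, and 16.0 for the small subunit gene rpc-11 (rank 11840), where the summit lay 255 bp downstream of the nearest start. The stalk gene rpc-25 had a region in replicate 1 alone, at 9.62 (rank 18101). None of the 4 genes had a region in both replicates.

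After taf-8, the strongest TAF gene was taf-11.3, which missed the IDR set by 11 places. Its signal was 21.1 in replicate 1 (rank 944), 18.2 in replicate 2 (rank 314) and 38.7 in the joined list (rank 553), where the lowest IDR region had 39.1. Replicate 2 alone would put it among the first 542. The summit lay 190 bp upstream in replicate 1 and in the joined list (chrIII:10505275-10505604) and 147 bp upstream in replicate 2, in the interval shared with the divergent gene urm-1, a ubiquitin-related modifier gene whose start is 40 bp from the joined summit.

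Near it in rank was taf-6.2, a histone-fold TAF, with 18.9 in replicate 1 (rank 1380), 11.34 in replicate 2 (rank 1796) and 34.7 in the joined list (rank 654). Its summits lay 55, 20 and 70 bp upstream, in the same order (chrIV:3694638-3694967), and the interval is shared with the divergent gene Y37E11AL.3. For taf-4, which pairs with taf-12 in TFIID, the signal was 14.1 in replicate 1 (rank 4688), 10.7 in replicate 2 (rank 2374) and 24.3 in the joined list (rank 1903). The joined summit was 439 bp upstream of taf-4 and 485 bp from the divergent gene pqn-59, and replicate 1 had only 8.01 there (rank 28059), its strongest summit being 625 bp upstream.

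The TAFs that have several gene copies had unequal signal. Joined signals were 38.7 for taf-11.3 and 23.1 for taf-11.1 (rank 2371), and taf-11.2 had no joined region and only 8.61 in replicate 1 (rank 23875). At taf-11.1 the region (chrX:4254766-4255095, 239 bp upstream) was found in replicate 1 with 12.8 (rank 6846) and was missing from replicate 2. For the TAF6 copies the joined signals were 34.7 at taf-6.2 and 11.7 at taf-6.1 (rank 29285), and for the TAF7 copies 15.4 at taf-7.1 (rank 13531) and none at taf-7.2 in any list. With 2 libraries and no stated scale, these differences between copies have no test.

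The other general factors had weak regions or none. Joined signals were 15.9 at taf-3, 12.6 at taf-9 and 12.5 at ttb-1, the TFIIB gene, the strongest of them at rank 12132 (taf-3). The TATA-binding protein gene tbp-1 had a region in replicate 2 alone, at 6.07 (rank 18916), as did taf-10, at 5.28, and taf-2, at 5.64, and taf-12 had one in replicate 1 alone, at 11.8. No region in any list was found for taf-1, the largest TAF, taf-5 or taf-13. In all, 8 members had a region in a replicate list only and 7 had none, counts for which no share over all genes is given.

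**Figure D3:**
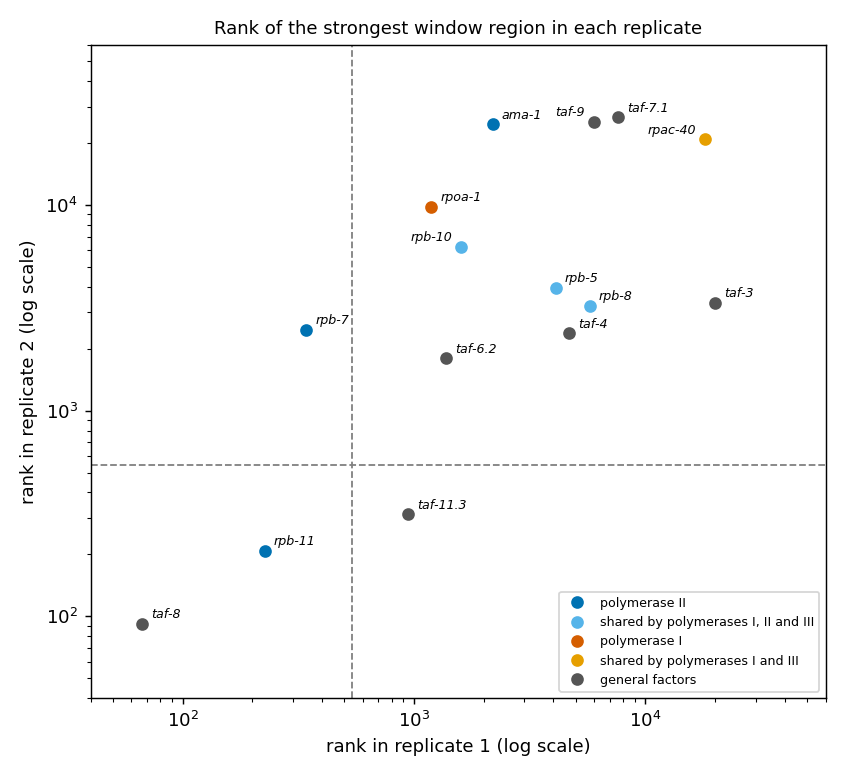
Rank of the strongest region in replicate 1 (horizontal axis) against replicate 2 (vertical axis), both on log scales with strong regions at low ranks, for the 15 members listed in both; dashed lines mark rank 542. The points of taf-8 (67 and 92) and rpb-11 (227 and 208) lie at the lower left with similar ranks in both, and rpb-7 (342 and 2472) and ama-1 (2189 and 24638) lie much lower in replicate 2.

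Over the 26 members with a joined summit the median signal was 19.3 (median rank 5485.5), and over the 8579 protein-coding genes with one it was 16.2 (median rank 11347). By class, the medians were 38.2 for 4 polymerase II genes, 23.8 for 5 shared genes and 23.3 for 2 polymerase I genes. They were 15.3 for the 2 rpac genes, 15.7 for 3 polymerase III genes and 19.5 for 10 general factor genes. In replicate 1 the median was 13.3 for 27 members and 11.23 for all genes, and in replicate 2 it was 9.10 for 22 members and 7.11 for all genes. These medians leave out the members with no region and so describe only the listed genes.

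The stronger member summits stood close to the gene start. For the 12 within the first 3000, the median distance was 182.5 bp upstream (from 9 to 576 bp), and 10 of the 12 lay within 300 bp. The 14 weaker member summits had a median of 253 bp, all genes with a joined summit of any rank 318 bp and all genes with an IDR summit 208.5 bp. For all genes within the first 3000, neither a median nor a share within 300 bp is given. Closeness to the start can therefore not be called particular to the members. All 12 had a replicate 1 summit near the joined summit (closer than the distance from a typical region's centre to its edge), and 10 had one in replicate 2, the exceptions being rpb-6 and taf-11.1. The joined list was called on the same libraries, so these matches are not independent support, and no share over all joined summits is given. Some of the nearby replicate summits ranked far down their lists, as given above for ama-1, rpb-10, rpoa-1 and taf-4. For 5 of the 12 (ama-1, rpb-8, rpoa-1, taf-11.1 and taf-8) no other protein-coding gene had a window that covered the summit, and for the other 7 at least 1 did. At ama-1 the start of another protein-coding gene was nevertheless nearer to the summit. No such split is given for all genes.

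**Figure D4:**
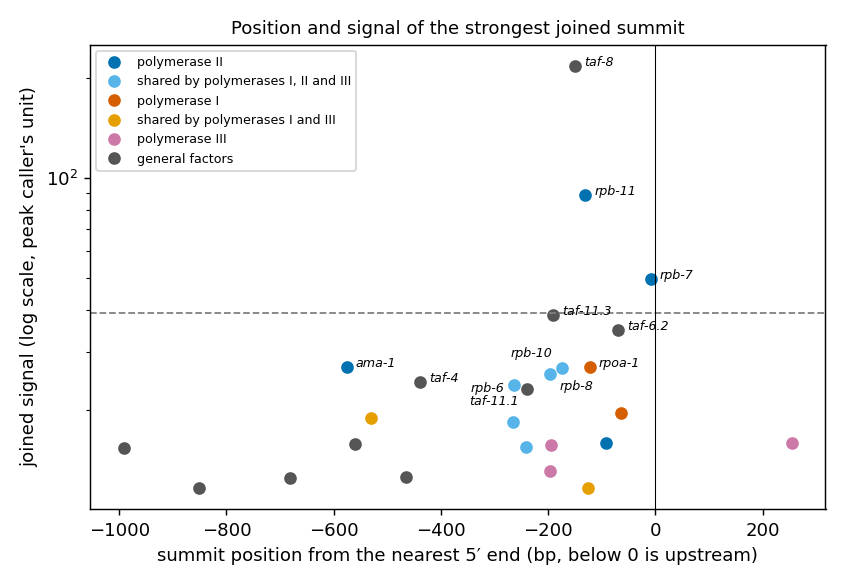
Distance of the strongest joined summit from the nearest annotated start (horizontal axis, bp, below 0 is upstream) and its signal (vertical axis, authors' units, log scale) for the 26 members with one; the dashed line is the lowest IDR signal. The 3 IDR members lie at 9, 131 and 149 bp upstream, and the other strong summits lie between 70 and 576 bp upstream.

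Many C. elegans genes lie in runs on 1 strand, and some of these are transcribed as operons from a promoter before the first gene. For 15 of the 41 members a gene on the same strand ended within 500 bp upstream. Of these 15, 1 (rpb-8, 6.67%) had a joined summit within the first 3000, while 11 of the 26 other members did (42.3%). Over all protein-coding genes, the shares were 8.03% of 3824 genes with such a neighbour and 9.49% of 16149 without, a much smaller gap. The first gene of the run had a joined summit within the first 3000 for 3 of the 15. They were ubc-7 for rpac-19 (47.2, rank 425), hach-1 for rpc-2 (31.9, rank 763) and ccm-3 for taf-13 (22.1, rank 2954). That of ubc-7 alone was in the IDR set. In replicates 1 and 2 the strongest regions ranked 487 and 690 at ubc-7 and 556 and 23052 at hach-1. At ccm-3 the rank was 19455 in replicate 1, with no region in replicate 2. No share over the first genes of all runs is given, so this count describes the members alone. Whether these runs are operons was not tested, and the split was chosen with the results in view.

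For comparison, other genes of the transcription machinery were counted by symbol. Of 29 Mediator genes, which encode the complex that links activators to polymerase II, 4 had an IDR summit (13.8%). Joined signals were 667 at cic-1, the cyclin C gene (rank 10), 147 at mdt-19, 51.7 at mdt-22 and 41.4 at mdt-6. These summits lay 98, 762, 63 and 918 bp upstream, in the same order. Whether windows of other genes cover the summits of these lists is not given. Of 11 Integrator genes, whose complex cleaves nascent RNAs, 2 had one (18.2%), ints-4 at 166 and ints-5 at 105. The counts were 1 of 15 for elongation factors and polymerase-modifying enzymes (pafo-1, 86.5) and 1 of 17 for the other general factors of polymerase II (pqn-51, 39.3). Of 11 factors for polymerase III and small nuclear RNA genes, none had one, which allows a share of up to 27.3%. Together 8 of 83 genes had an IDR summit (9.64%) and 16 a joined summit within the first 3000 (19.3%), beside 3 and 12 of the 41 members. Over all protein-coding genes the shares were 3.47% for an IDR summit and 9.21% for the first 3000. With lists this small, a count of 1 cannot be placed against those shares, and the difference between the lists was not tested.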

How the data were processed

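ChIP-seq peak lists were used. The authors deposited narrowPeak lists on ce10 and ce11; only ce11 was analysed. Column 7 is the deposited signal per region, whose scale is not stated, and read depth is unknown. The candidate calls were made against a control, per the notes deposited with the samples, which was not analysed here; the sources used here name neither aligner nor peak caller. Genes came from Ensembl release 115 on WBcel235 (12 mitochondrial genes left out), and coordinates are 1-based.

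Each of 29784 annotated 5′ ends received a window of 1000 bp upstream and 200 bp downstream, and each gene its highest summit. Words were searched on both strands within 50 bp of each summit. With 1 group and 2 replicates, no test between groups was made; counts carry 95% Wilson intervals, and a count of 0 in the list of 11 genes is given the limit of 3 counts. Alternatives were other windows, region overlap, 1 gene per summit, the outermost 5′ end, the stronger 50% of IDR regions, and each replicate alone. The window search was tested on simulated regions. Members, gene lists, words and cut-offs were chosen with earlier results of these data known. Named in full were members with an IDR summit, then those with a joined summit within the first 3000; the others are given by class, with gene copies side by side, and up to 4 genes for each other list. Python 3.11.15, numpy 2.4.6, scipy 1.17.1 and matplotlib 3.10.9 were used.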

Additional observations from a re-analysis of the deposited data

How the results depend on the processing

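The count of members with an IDR summit was 3 (all genes 3.47%). It was 3 with a window of 500 bp upstream and 100 bp downstream (all genes 2.99%), with any overlap of the region (3.64%), with 1 gene per summit (2.23%, below the members' interval of 2.52 to 19.4) and with the outermost 5′ end alone (3.36%; added after the data had been seen). It was 2 with the stronger 50% of IDR regions (1.89%), and 5 with 2000 bp upstream, which adds rpac-19 and taf-11.3 (4.22%). The 2000 bp window gives 1 gene for the rpac pair and 2 for the general factors. The polymerase II count was 1 with the stronger 50%. To leave out each replicate, the first 542 regions of the other replicate's list were taken, without an IDR step. That gave 3 members both times (all genes 3.46% in replicate 1 and 2.77% in replicate 2). Among them were 1 to 2 polymerase II genes and 1 to 2 general factors. The median signal was 9.10 (replicate 2 list, 22 members) to 13.3 (replicate 1 list, 27 members), beside 19.3 in the joined list (26 members). The medians of all genes in the same lists were 7.11, 11.23 and 16.2, and the lists differ in scale. The cause of the lower medians was not tested. Within the first 3000, the members numbered 11 with the 500 bp window (all genes 6.90%), 13 with 2000 bp (12.2%), 12 with overlap (10.1%), 9 with 1 gene per summit (6.87%) and 12 with the outermost end (8.42%), and 9 and 8 in replicates 1 and 2. The summit of ama-1 fell outside the 500 bp window, where its signal was 15.9. With 1 gene per summit, the summits of ama-1, rpb-10 and taf-11.3 went to another gene with a nearer start, and ama-1 again had 15.9 (rank 11979). A version with canonical transcripts alone was not run, because the annotation used here marks none. No paired analysis was possible because the study has 1 group. Depth is unknown, so a missing region does not show a lack of binding.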

Other observations

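The run CCGAGAGGAGTACAC was present in 39 of the 19973 promoter sequences of 300 bases (0.195%), and 2 of these belong to members. They are taf-8 and taf-11.3, the pair in which the run was found. The member count was thus fixed in advance and cannot be set against the share over all promoters.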
